A study of Arabidopsis thaliana with 4 samples.

Results

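QQS and GAT1_2.1 are a pair of Arabidopsis genes that act between carbon and nitrogen metabolism, and they were read here in whole seedlings that overexpress the microRNA miR396 and in wild type. They are 2 of the 13286 genes that had a probe set of their own, and 3 of the 22746 probe sets that measure plant transcripts read them. The probe sets were those that the platform annotation gives to QQS (AT3G30720) or to GAT1_2.1 (AT1G15040) and to no other gene. QQS had 1 such probe set and GAT1_2.1 had 2, of which the brighter is described first. Both genes were selected on the signals of these 4 arrays, by their differences between genotypes and between replicate numbers. Those differences are therefore given as descriptions, without a test.

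Each of the 4 Affymetrix arrays held total RNA of seedlings of the Col-0 ecotype, 10 days old, grown on Murashige-Skoog salts under long days at 23 °C. The arrays 35S:miR396 1 and 35S:miR396 2 came from plants in which miR396 is expressed from the viral 35S promoter, active in nearly all plant organs, and the arrays wild type 1b and wild type 2 from plants without the transgene. The labels state neither how many lines or plants each sample held nor whether replicates were grown apart, so the spread between them may be technical. The level of miR396 itself was not analysed here. Median signals were 60.5 on 35S:miR396 1, 81.3 on 35S:miR396 2, 72.8 on wild type 1b and 71.3 on wild type 2, so log2 signals were centred on each array's median before arrays were compared. In whole seedlings, fewer cells of a type and less RNA per cell cannot be told apart. Of 4 shoot and 4 root marker genes, 3 had a probe set of their own. LHCB4.1, a protein of the light-harvesting antenna of green tissue, stood at 11775 and 13507 in 35S:miR396 and 13121 and 13240 in wild type. PYK10, a beta-glucosidase abundant in roots, stood at 1197 and 1497 in 35S:miR396 and 1321 and 1195 in wild type. The root hair gene EXPA7 was at 20.1 or below on every array. Green tissue was thus read through LHCB4.1 on all 4 arrays. The reading of roots rests on PYK10 alone, as EXPA7 was below the filter on low signals.

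QQS (QUA-QUINE STARCH) is known as an orphan gene, found in Arabidopsis thaliana without recognisable relatives elsewhere. Its small protein lowers leaf starch and raises protein content, and binds the transcription factor subunit NF-YC4. GAT1_2.1 belongs to the class I glutamine amidotransferases, a fold that takes the amide nitrogen from glutamine. Its transcript responds to nitrogen supply, and its loss increases shoot branching. Starch is made in the chloroplast by day from ADP-glucose and broken down at night to maltose and glucose for sucrose synthesis, which supplies the carbon skeletons onto which glutamine nitrogen is moved.

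QQS had the lower signals in 35S:miR396. It stood at 81.9 on 35S:miR396 1 and 88.9 on 35S:miR396 2, against 148 on wild type 1b and 166 on wild type 2. Both 35S:miR396 arrays lay below both wild-type arrays, and within each genotype the signals lay close together. The means were 85.4 ± 4.95 in 35S:miR396 and 157 ± 12.6 in wild type (SD, n = 2 each). On the centred log2 scale, where 0 is the median of the array, QQS stood at 0.44 and 0.13 in 35S:miR396 and at 1.02 and 1.22 in wild type. The mean difference was a log2 ratio of -0.84, or a signal 0.560 times that of wild type.

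**Figure D1:**
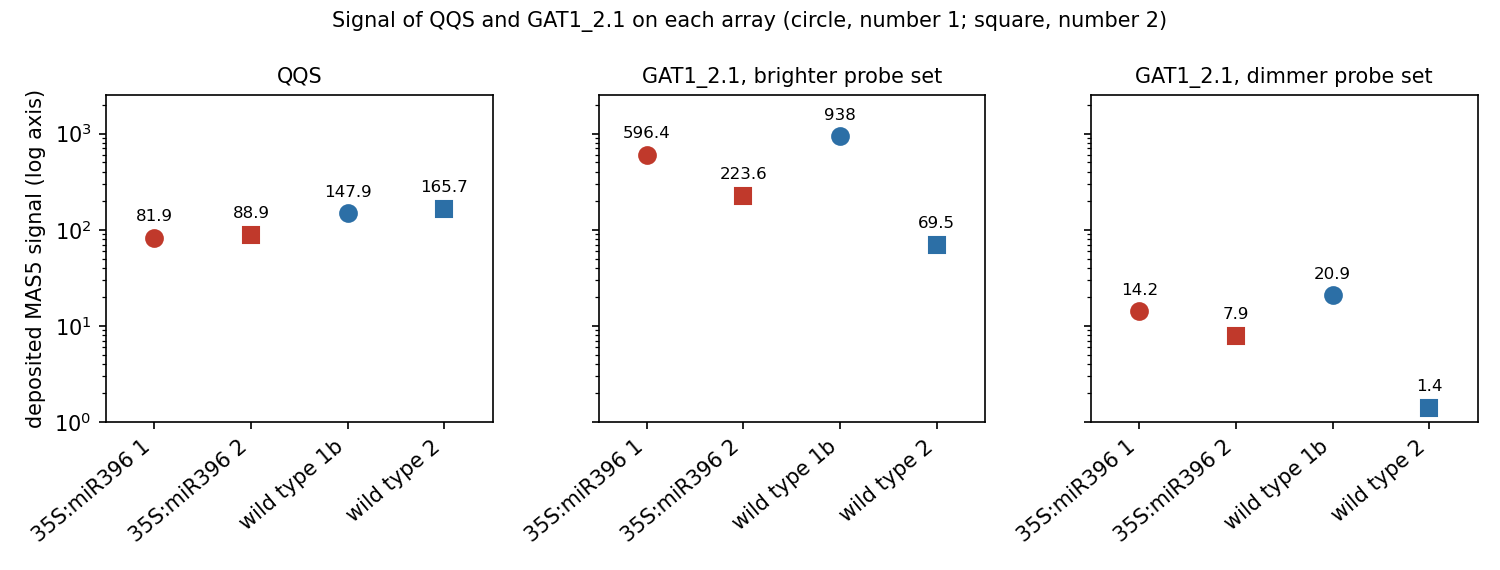
Deposited signals (log axis) of QQS and of both GAT1_2.1 probe sets on the arrays 35S:miR396 1, 35S:miR396 2, wild type 1b and wild type 2; each point is 1 array, circles mark replicate number 1 and squares number 2. QQS is at 81.9 and 88.9 on the 35S:miR396 arrays and at 148 and 166 on the wild-type arrays, while both GAT1_2.1 probe sets are highest on wild type 1b and lowest on wild type 2.

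The size of the QQS ratio within each replicate number depended on the scaling. After centring, 35S:miR396 over wild type gave a log2 ratio of -0.59 in number 1 and -1.09 in number 2, or 0.666 and 0.471 times the wild-type level. On the deposited signals the ratios were -0.85 and -0.90, almost equal, and after quantile normalization they were -0.59 and -1.10. The ratio was below 0 in both numbers under each of these scalings. The distance between the centred and the deposited ratios comes from the array medians, as 35S:miR396 1 was the dimmest array and 35S:miR396 2 the brightest.

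Many probe sets shared the direction of QQS, and few its size. Among the 15922 probe sets kept by the filter on low signals, 10.7% had both 35S:miR396 arrays below both wild-type arrays after centring, and 26.0% had ratios below 0 in both numbers. A log2 ratio of -0.59 or lower in both numbers was found for 89 probe sets, or 0.559%. QQS was selected by its differences on these arrays, so this small share is a description and not a test. The middle 95% of ratios lay between -0.72 and 0.73 in number 1 and between -0.69 and 0.70 in number 2, so QQS was inside that range in number 1 and outside it in number 2. In the genotype comparison across all 15922 probe sets with limma, 0% passed an adjusted p of 0.05, and 103 probe sets lay under an unadjusted p of 0.05. That fit had no term for the replicate number, so shifts between the numbers counted as spread within the genotypes. With such a term, a pairing that the labels do not state, 18 passed and 902 lay under the unadjusted 0.05. The 0% therefore does not show that genotype differences were absent. Without any differences, a share of about 0.05 of the 15922 probe sets would be expected under the unadjusted limit. Neither 103 nor 902 is thus a count of genotype differences. 

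QQS hardly moved between the replicate numbers. The centred shift, number 2 minus number 1, was -0.31 in 35S:miR396 and 0.19 in wild type, with a mean of -0.06. After quantile normalization the shifts were -0.29 and 0.22. On deposited signals they were 0.12 and 0.16, with a mean of 0.14, so the sign in 35S:miR396 depended on the scaling. The signals were 88.9 and 166 in number 2 and 81.9 and 148 in number 1, so the numbers overlapped. The spread of centred shifts over all tested probe sets was an SD of 0.57 in 35S:miR396 and 0.58 in wild type, wider than either centred shift of QQS.

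**Figure D2:**
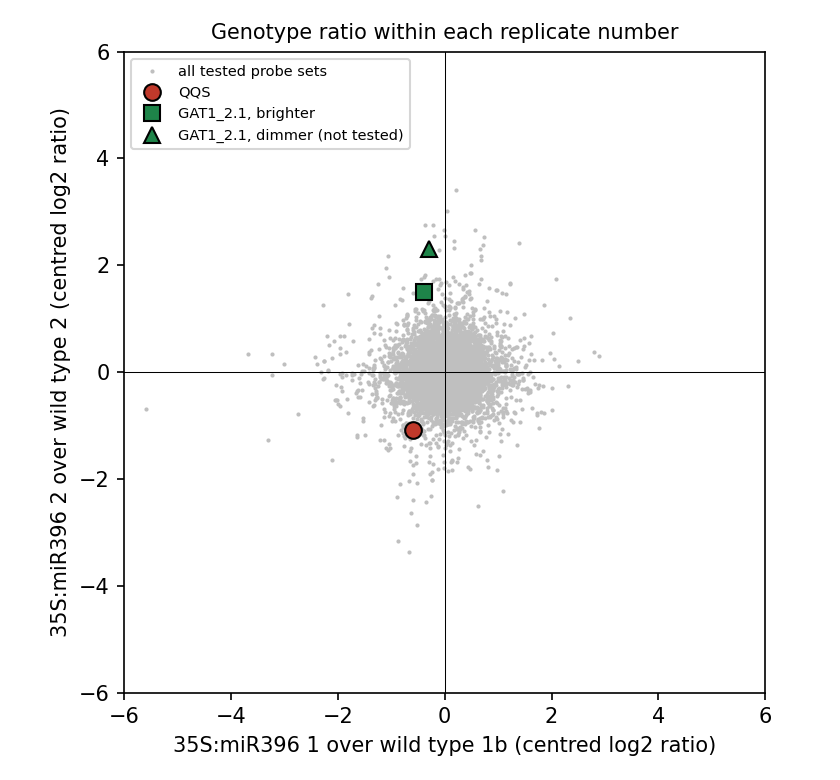
Centred log2 ratio of 35S:miR396 to wild type in replicate number 1 (horizontal axis) and in number 2 (vertical axis) for all 15922 tested probe sets (grey), QQS (circle) and both GAT1_2.1 probe sets (square and triangle). QQS lies below 0 on both axes, at -0.59 and -1.09, and GAT1_2.1 lies below 0 in number 1 and above 0 in number 2.

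GAT1_2.1 differed more between the replicate numbers than between the genotypes. Its brighter probe set stood at 224 on 35S:miR396 2 and 69.5 on wild type 2, against 596 on 35S:miR396 1 and 938 on wild type 1b. Both arrays of number 2 lay below both arrays of number 1, with means of 147 ± 109 in number 2 and 767 ± 242 in number 1 (SD, n = 2 each). After centring, number 2 minus number 1 was a log2 difference of -1.84 in 35S:miR396 and -3.72 in wild type. The level in number 2 was thus 0.279 times that of number 1 in 35S:miR396 and 0.0757 times that of number 1 in wild type.

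The dimmer GAT1_2.1 probe set ordered the arrays in the same way. It stood at 7.9 on 35S:miR396 2 and 1.4 on wild type 2, against 14.2 on 35S:miR396 1 and 20.9 on wild type 1b. Its mean level fell short of the filter on low signals, whose lowest kept mean was 15.8, so it entered no test and its ratios are imprecise. With a pseudocount its mean shift was -1.84, against -2.57 without one. Its centred shifts between the numbers were -1.27 in 35S:miR396 and -3.87 in wild type. The pair of probe sets reads 1 gene in the same 4 RNA samples and adds no replicate.

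A shift of this size was rare even though shifts between the numbers were common. After centring, 34.1% of tested probe sets had both arrays of number 2 below both arrays of number 1, and 27.0% had them above. In the limma comparison of number 2 with number 1, 3016 of 15922 passed an adjusted p of 0.05, or 18.9%, with 9.00% higher and 9.94% lower in number 2. Shifts of -1.84 or lower in both genotypes were found for 35 probe sets, or 0.220%. GAT1_2.1 was selected by its differences on these arrays, so this small share is a description and not a test. The labels do not say what the numbers stand for, and day, plate and RNA preparation were not tested.

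**Figure D3:**
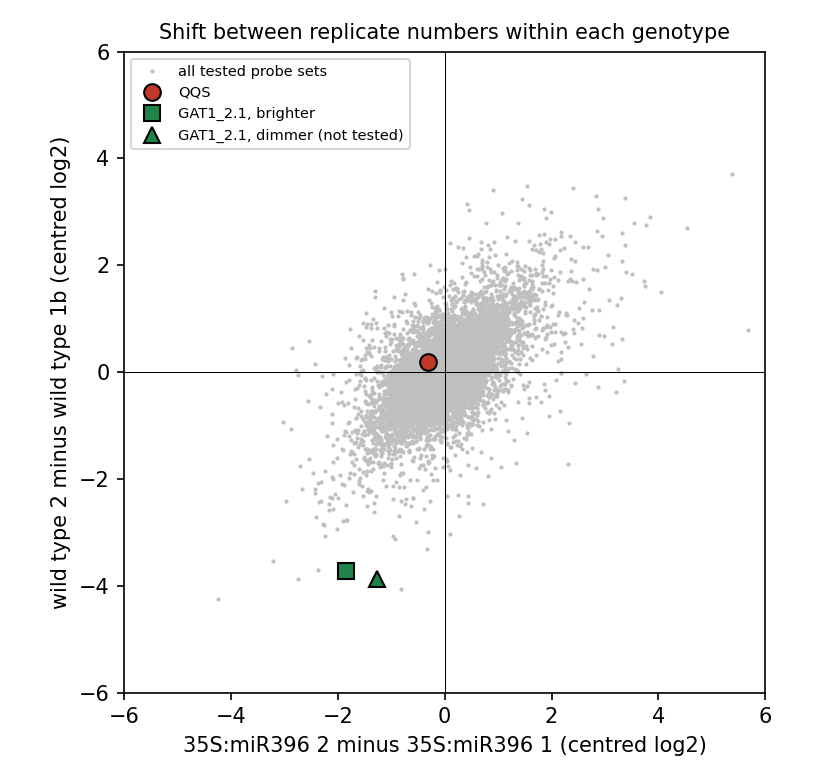
Centred log2 shift, number 2 minus number 1, within 35S:miR396 (horizontal axis) and within wild type (vertical axis) for all tested probe sets (grey), QQS (circle) and both GAT1_2.1 probe sets (square and triangle). QQS lies near the centre, and GAT1_2.1 lies at -1.84 and -3.72 at the lower left edge.

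The genotype ratio of GAT1_2.1 ran in opposite directions in the replicate numbers. In number 1 the 35S:miR396 array had the lower signal, with a centred log2 ratio of -0.39. In number 2 it had the higher signal, with a ratio of 1.496, or 2.82 times wild type. On deposited signals these ratios were -0.65 and 1.69, and after quantile normalization -0.40 and 1.52. The dimmer probe set, whose ratio in number 2 rests on a signal of 1.4 on wild type 2, is not set beside them. Of all tested probe sets 21.9% were likewise lower in number 1 and higher in number 2. For 70, or 0.440%, the ratio in number 2 exceeded that in number 1 by at least the gap of 1.88 of GAT1_2.1. Gaps of that size in the other direction were not counted. On deposited signals that gap was 2.34. As GAT1_2.1 was selected on these same signals, the small share is a description only.

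No single genotype difference therefore describes GAT1_2.1. Its mean signals were 410 ± 264 in 35S:miR396 and 504 ± 614 in wild type (SD, n = 2 each), and the genotypes overlapped. The mean centred log2 ratio was 0.56, against an SD of 1.30 between the 35S:miR396 arrays and 2.63 between the wild-type arrays. With 1 array left out the ratio was 2.42 without wild type 1b, 1.48 without 35S:miR396 2, -0.37 without 35S:miR396 1 and -1.31 without wild type 2, so its sign rests on which array is kept.

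The orders of the 4 arrays differed between the genes. QQS was highest on wild type 2, then wild type 1b, 35S:miR396 1 and 35S:miR396 2 after centring, an order shared by 2.66% of tested probe sets. On deposited signals 35S:miR396 2 (88.9) lay above 35S:miR396 1 (81.9), so the order of these arrays depended on the scaling. GAT1_2.1 was highest on wild type 1b, then 35S:miR396 1, 35S:miR396 2 and wild type 2, an order shared by 7.92%. Wild type 2 thus had the highest centred level of QQS and the lowest of GAT1_2.1.

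Genes with profiles like QQS were dim ones. Likeness was the root mean square distance of the 4 centred log2 levels after each gene's own mean was taken off, over 8735 other single-gene probe sets. The nearest 5 were AT5G15300, AT2G30480, B120, AT1G24210 and AT3G48185, at distances of 0.069 to 0.085, where QQS itself varied over the arrays with a root mean square of 0.44. AT5G15300 stood at 13.3 and 15.5 in 35S:miR396 and 24.8 and 30.6 in wild type. B120 stood at 26.1 and 28.8 in 35S:miR396 and 45.3 and 46.4 in wild type. MAS5 ratios at such low signals are imprecise.

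The 5 genes nearest to GAT1_2.1 by the same measure were AT5G18840, AT1G33790, AT3G19390, AT4G37220 and AT1G19530, at distances of 0.34 to 0.38 against its own root mean square of 1.49. AT4G37220 was at 115 and 58.6 in number 2 (35S:miR396 first, then wild type) and at 571 and 878 in number 1, with the arrays in the same order as for GAT1_2.1. AT1G19530 was at 24.1 and 4.7 in number 2 and at 31.8 and 79.9 in number 1, again with wild type at both ends. The centred genotype ratio in number 2 was between 0.49 and 2.17 over the 5. In number 1 it was between -1.06 and -0.35 for AT1G19530, AT4G37220 and AT3G19390, -0.0021 for AT1G33790 and 0.20 for AT5G18840. The 5 were picked for likeness to GAT1_2.1 on these arrays, so shared orders and signs follow from that choice. The ratio of 2.17 is that of AT1G19530 and is imprecise, as it rests on the signal of 4.7 on wild type 2.

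Other carbon and nitrogen genes were taken from lists of 123 genes, of which 22 had a probe set of their own in the annotation and 18 passed the filter. In the genotype comparison 0 of these 18 passed, but so did 0% of all probe sets, so the count says nothing particular about these genes. Between the numbers 6 of the 18 were higher in number 2 and 1 was lower with limma, against 9.00% and 9.94% of all probe sets. No test was made of the lists as wholes. Both NF-Y genes listed as partners of the QQS protein lacked a probe set of their own, so they were not read.

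Starch synthesis was read through 4 of 18 genes. Of these, 2 rose in number 2 relative to number 1, as 9.00% of all tested probe sets did. The large subunit genes of ADP-glucose pyrophosphorylase, which makes the ADP-glucose for starch, were these 2. APL4 stood at 90.2 and 114 in number 2 (35S:miR396 first, then wild type) and at 25.2 and 47.9 in number 1, a log2 difference of 1.35 ± 0.28 (SE, n = 2 each, limma adjusted p = 0.0122). APL3 stood at 85.5 and 71.0 in number 2 and at 36.6 and 47.3 in number 1, a difference of 0.71 ± 0.20 (limma adjusted p = 0.0426). For APL3 the limma adjusted p missed the threshold with each array left out and without the filter on low signals, where over all alternatives it lay between 0.0239 and 0.158. The branching enzyme SBE2.2 and AT5G39790 had differences of -0.05 and -0.23 and did not pass. The median of the 4 was 0.33, against -0.04 over all tested probe sets.

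The starch breakdown list was read through 4 of its 25 genes. Of these, 2 rose in number 2, as 9.00% of all tested probe sets did. Whether each listed enzyme acts on chloroplast starch in these seedlings was not tested. The phosphoglucan water dikinase PWD (AT5G26570), which phosphorylates starch before it is degraded, stood at 2306 and 2251 in number 2 and at 1090 and 1322 in number 1. Its log2 difference was 0.73 ± 0.09 (SE, n = 2 each, limma adjusted p = 0.00103). The alpha-amylase-like AMY1 stood at 48.8 and 40.5 in number 2 and at 15.8 and 19.0 in number 1, a difference of 1.16 ± 0.31 (limma adjusted p = 0.0313). Like APL3, AMY1 lost its call with each array left out and without the filter, with limma adjusted p between 0.0113 and 0.123 over the alternatives. The disproportionating enzyme DPE1 and AT4G24450 had differences of 0.15 and 0.32 and did not pass. The median of the 4 was 0.52, against -0.04 over all tested probe sets.

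The sucrose list had 1 measured gene of 17. ATSPS4F, a sucrose phosphate synthase, was at 1619 and 1509 in number 2 and at 840 and 928 in number 1, and rose by 0.63 ± 0.09 on the log2 scale (SE, n = 2 each, limma adjusted p = 0.00232). Its genotype ratio was 0.02.

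**Figure D4:**
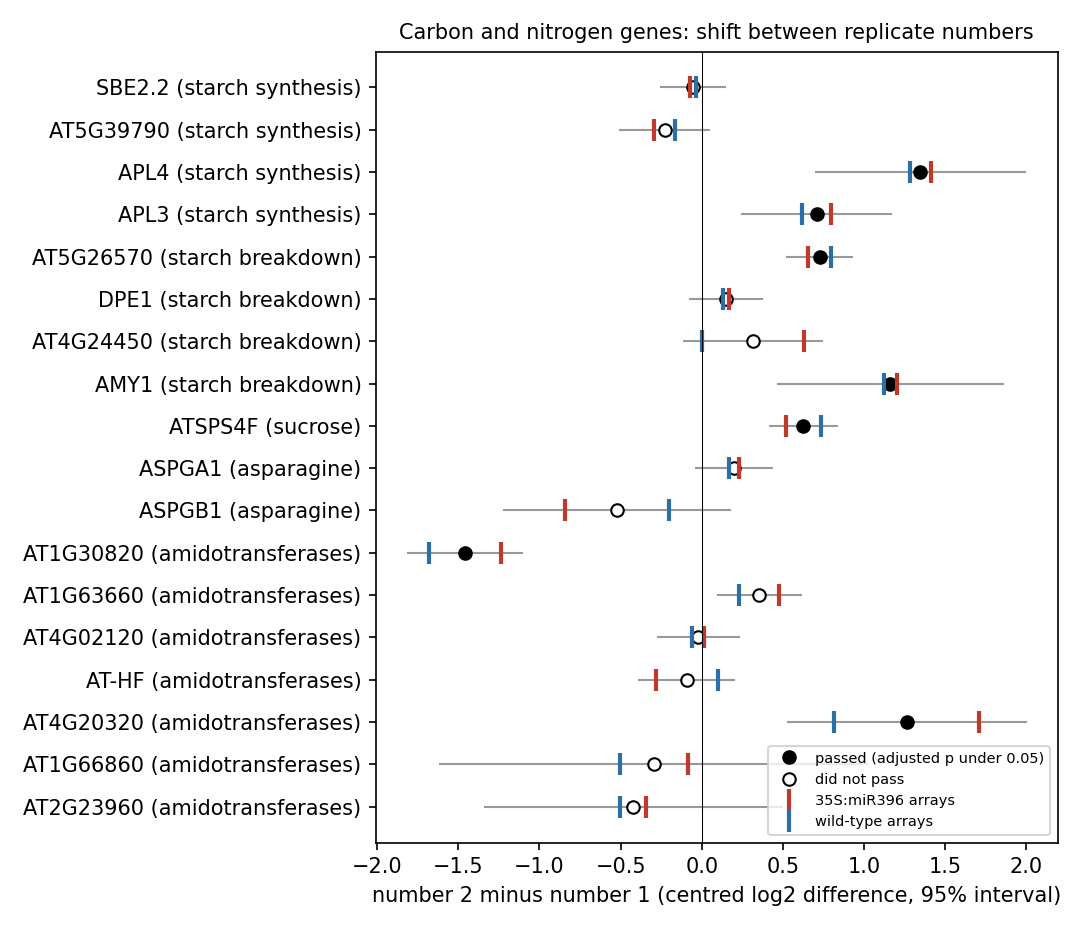
Centred log2 difference, number 2 minus number 1, for the 18 tested genes of the carbon and nitrogen lists. Circles give the mean with its 95% interval from limma (filled where the adjusted p was under 0.05), and the red and blue ticks give the difference within 35S:miR396 and within wild type. The 6 filled circles on the right include APL4, APL3, PWD (shown as AT5G26570) and AMY1 from the starch lists, and the only filled circle on the left is AT1G30820.

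Nitrogen genes gave fewer readings. Of 20 genes of nitrate and ammonium uptake and nitrate reduction, the nitrate transporter gene NRT2.5 alone had a probe set of its own, at 17.7 and 18.2 in 35S:miR396 and 3.2 and 8.1 in wild type, below the filter. Of 22 genes of glutamine, glutamate and asparagine metabolism only the asparaginases ASPGA1 and ASPGB1 were read, and neither passed. Asparaginases release ammonium from asparagine. ASPGA1 had a difference between the numbers of 0.20 and ASPGB1 one of -0.52, and their genotype ratios were 0.03 and -0.58. With single arrays left out the shift of ASPGB1 was -0.97 to -0.07, and it passed without wild type 2 (limma adjusted p = 0.0467, in a range up to 0.910 over the alternatives).

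The other listed glutamine amidotransferases comprised 19 genes, 10 of them measured and 7 tested. Except for AT-HF, the tested ones have no enzyme name in the reference table and were listed from general knowledge of the family. AT1G30820 was the 1 that fell in number 2. It stood at 315 and 289 in number 2 and at 552 and 943 in number 1, a log2 difference of -1.46 ± 0.16 (SE, n = 2 each, limma adjusted p = 4.99e-04). AT4G20320 rose, at 65.1 and 51.2 in number 2 and 14.8 and 29.7 in number 1, a difference of 1.26 ± 0.32 (limma adjusted p = 0.0278). That call was lost without the filter, without the trend and without 35S:miR396 1, 35S:miR396 2 or wild type 2, with limma adjusted p between 0.00135 and 0.0888 over the alternatives. The other 5 did not pass, with AT1G63660 at 0.36, AT4G02120 at -0.02, AT-HF at -0.09, AT1G66860 at -0.30 and AT2G23960 at -0.42. AT1G63660 (limma adjusted p = 0.0644) passed with genotype as a term and with a filter on the lowest 60%, with limma adjusted p between 0.0492 and 0.313 over the alternatives.

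AT1G66860 had the largest genotype ratio of the 18 genes. It stood at 28.0 and 35.4 in 35S:miR396 and at 16.1 and 11.1 in wild type, a centred log2 ratio of 1.27 ± 0.36 (SE, n = 2 each) that did not pass (limma adjusted p = 1.00). Both 35S:miR396 arrays lay above both wild-type arrays, as they did for 9.18% of all tested probe sets. The signals of AT1G66860 were low, near the lowest mean of 15.8 that the filter kept, so its ratio is imprecise.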

How the data were processed

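Signals came as 1 deposited table of intensity values per probe set, not log-transformed, which per the submitters' processing notes were computed with MAS5. No version, scaling target or detection call is given in the sources used here, so presence and absence were not called. From 22810 probe sets 64 controls were removed. The platform annotation gave 1 gene to 13513 of the rest, several to 503 and none to 8730. RefSeq names of TAIR10.1 matched 13436, and its coordinates were not used. The brightest of several probe sets stood for a gene in the lists.

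The 6 values at or under 0 were set to 0.1, log2 was taken and each array centred on its median. Probe sets in the lowest 30% by mean log2 were dropped. Genotypes (from the titles) and replicate numbers (1b taken as 1) were each compared with limma 3.58.1 in R 4.3.3 (eBayes with a trend, two-sided, Benjamini-Hochberg adjustment over all 15922 probe sets, threshold 0.05), without a block. Median half-widths of 95% intervals were 0.63 log2 for genotypes and 0.35 for numbers, and the number of arrays limits the precision of both. Without a block, shifts between the numbers count as spread within each genotype and enter the genotype intervals. Alternatives were deposited scaling, quantile normalization, a pseudocount of 2.4, no filter, a filter on the lowest 60%, eBayes without a trend or with robust fitting, single arrays left out, and the other factor as a term. Members and lists were chosen with earlier results of these data known. The text names both members, listed genes that passed the filter, and the 5 nearest profiles. NRT2.5, EXPA7 and the dimmer GAT1_2.1 probe set, below the filter, were added after their values were seen. The fits were also run on simulated arrays drawn independently of each other. Deviations shared by the arrays of 1 replicate number were not simulated, so those runs do not cover them. Tables and figures used Python 3.11.15, pandas 2.3.3, numpy 2.4.6 and matplotlib 3.10.9.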

Additional observations from a re-analysis of the deposited data

Results flagged for a closer look

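The genotype ratio of GAT1_2.1 had opposite signs in the replicate numbers. 35S:miR396 over wild type gave a centred log2 ratio of -0.39 in number 1 and 1.496 in number 2. Each ratio rests on 1 array a genotype, and the difference was not tested.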

How the results depend on the processing

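No probe set passed in the genotype comparison under any alternative without a term for the replicate number. With the replicate number as a block 18 passed (5 higher and 13 lower in 35S:miR396). The labels do not say that the number pairs the arrays, and with 2 pairs the correlation of 0.63 between the deviations of the arrays of number 1 from their genotype means does not settle it. Between the numbers 3016 passed, 1127 without the trend (the cause was not tested) and 2190 on deposited signals. Of these 2190, 1684 were higher and 506 lower in number 2, against 1433 and 1583 after centring, as the median difference over all probe sets was 0.16 on deposited signals and -0.04 after centring. With single arrays left out the count was 2290 to 2665. The mean genotype ratio of QQS was -0.99 to -0.68 and its mean shift between numbers -0.60 to 0.49 with single arrays left out. For GAT1_2.1 these ranges were -1.31 to 2.42 and -3.53 to -2.03, and for its dimmer probe set -0.93 to 2.94 and -3.72 to -1.42. PWD and AT1G30820 passed between the numbers in all 12 alternatives, and APL4 and ATSPS4F in all but the one without the trend (limma adjusted p = 0.0719 and 0.0540). With the pseudocount the dimmer probe set of GAT1_2.1 had a mean genotype ratio of 0.51, against 1.01 without one. Of the nearest 5 profiles, 4 for QQS (not AT2G30480) and 5 for GAT1_2.1 were shared after quantile normalization.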
